A study of Homo sapiens with 9 samples.

Results

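The genes described here were 41 named members, 26 keratins and 15 desmosome or hemidesmosome genes, among 47753 features on the array, of which 22439 had a gene symbol. Members were found by matching the accession of each probe to RefSeq, and all 41 had a probe. Where a member had more than 1 probe, as 9 had, the brightest was used.

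Keratins are the intermediate filament proteins of epithelial cells, and each filament pairs a type I with a type II keratin. Desmosomes join neighbouring cells. Their cadherins (desmogleins and desmocollins) reach across the gap, and inside the cell armadillo proteins (plakoglobin and plakophilins) and the plakin desmoplakin tie them to the keratin filaments. Hemidesmosomes anchor the same filaments to the basement membrane. Basal keratinocytes are known for KRT5 with KRT14, wounded or hyperproliferative ones for KRT6, KRT16 and KRT17, oral mucosa for KRT4 with KRT13, and simple epithelia for KRT8 with KRT18 and KRT19, which many squamous carcinomas also express.

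OEC-M1 cells, a head and neck squamous carcinoma line, were studied in 3 groups of 3 arrays. The groups were transfected for 72 h with a control siRNA (si-Control), with siRNA against GATA3 (GATA3 knockdown) or with siRNA against HIF1A (HIF-1α knockdown). The study names 1 siRNA sequence per target for these arrays, so an effect of the sequence apart from its target was not tested. Every group was kept at 1% O2 for 18 h, so the arrays hold no comparison with normoxic cells. Nothing in the labels says that the 3 arrays of a group came from separate cultures, and P values then measure only the spread between these arrays.

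GATA3 knockdown lowered the GATA3 signal 2.40-fold (log2 difference -1.27 ± 0.34, SE) from 11.10 ± 0.38 (SD, n = 3) in si-Control, and HIF-1α knockdown lowered HIF1A 5.0-fold (-2.32 ± 0.35) from 16.73 ± 0.50 (SD, n = 3). Transcript of both targets was therefore still measured. Median intensity of the 9 arrays ranged from 992.5 to 3560, and from 0.149% to 8.67% of spots were marked non-uniform and set to missing. On each array 73.3% to 88.0% of probes passed the scanner's test for being well above background. This share was 85.8% to 88.0% in si-Control, 73.3% to 83.0% in GATA3 knockdown and 80.0% to 87.0% in HIF-1α knockdown. Spots not well above background were thus more common in GATA3 knockdown than in si-Control over all probes. Each of the 3 slides held 1 array of each group. Of 11 squamous epithelial markers, 10 were well above background on all 9 arrays, and of 8 fibroblast markers 3 were (COL1A1, PDGFRB and THY1) while COL3A1, LUM and PDGFRA were so on no array. The labels name no other cell type. Of the markers measured, 3 of 4 leukocyte, 3 of 4 endothelial and 3 of 5 melanocyte ones were also well above background on all 9 arrays. Such detection was common here, at 73.3% to 88.0% of all probes on each single array.

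Of the 41 members, 27 were well above background on all 9 arrays, 11 on some and 3 on none. The 3 on none were KRT5, the type II partner in basal cells, KRT6B and the desmoglein DSG4, although the basal partner KRT14 was well above background on every array. Missing spots left KRT1 with 8 arrays, DSC1 with 8, DSG3 with 7 and KRT10 with 3, so KRT10 was tested only between GATA3 knockdown and si-Control.

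The 3 comparisons were GATA3 knockdown against si-Control, HIF-1α knockdown against si-Control and GATA3 knockdown against HIF-1α knockdown, and they share arrays. Differences are on the log2 scale and are given ± SE. A member was counted at an unadjusted P of 0.05 or less in limma, the threshold of the study's methods. No member passed an adjusted P of 0.05 in any comparison, where 0% of all features passed against si-Control in either knockdown and 0.00422% in the direct comparison. Adjusted P was 1.00 for every member in GATA3 knockdown, 0.823 or more in HIF-1α knockdown and 0.343 or more in the direct comparison.

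In GATA3 knockdown, 1 of 41 members was counted, and it was lower, where 2.97% of all features were counted, 1.38% as lower and 1.59% as higher. This was KRT19, a type I keratin of simple epithelia. Its log2 intensity was 18.34, 17.69 and 17.96 in si-Control, 17.50, 17.24 and 17.07 in GATA3 knockdown and 18.29, 17.63 and 17.84 in HIF-1α knockdown, on slides 1, 2 and 3. All GATA3 knockdown arrays lay below all arrays of both other groups. The fall against si-Control was 1.65-fold (log2 difference -0.72 ± 0.27, SE, 95% interval -1.33 to -0.11, adjusted P = 1.00), and within slides 1, 2 and 3 it was -0.84, -0.44 and -0.89. Without si-Control replicate 1, GATA3 knockdown replicate 2 or GATA3 knockdown replicate 3 it no longer passed (log2 differences of -0.55, -0.71 and -0.62). It did not pass in the authors' table or with the processed signal less the 75th percentile either (-0.68 in both), where the 1 member counted was DSG4, as higher, although its spots were well above background on no array.

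**Figure D1:**
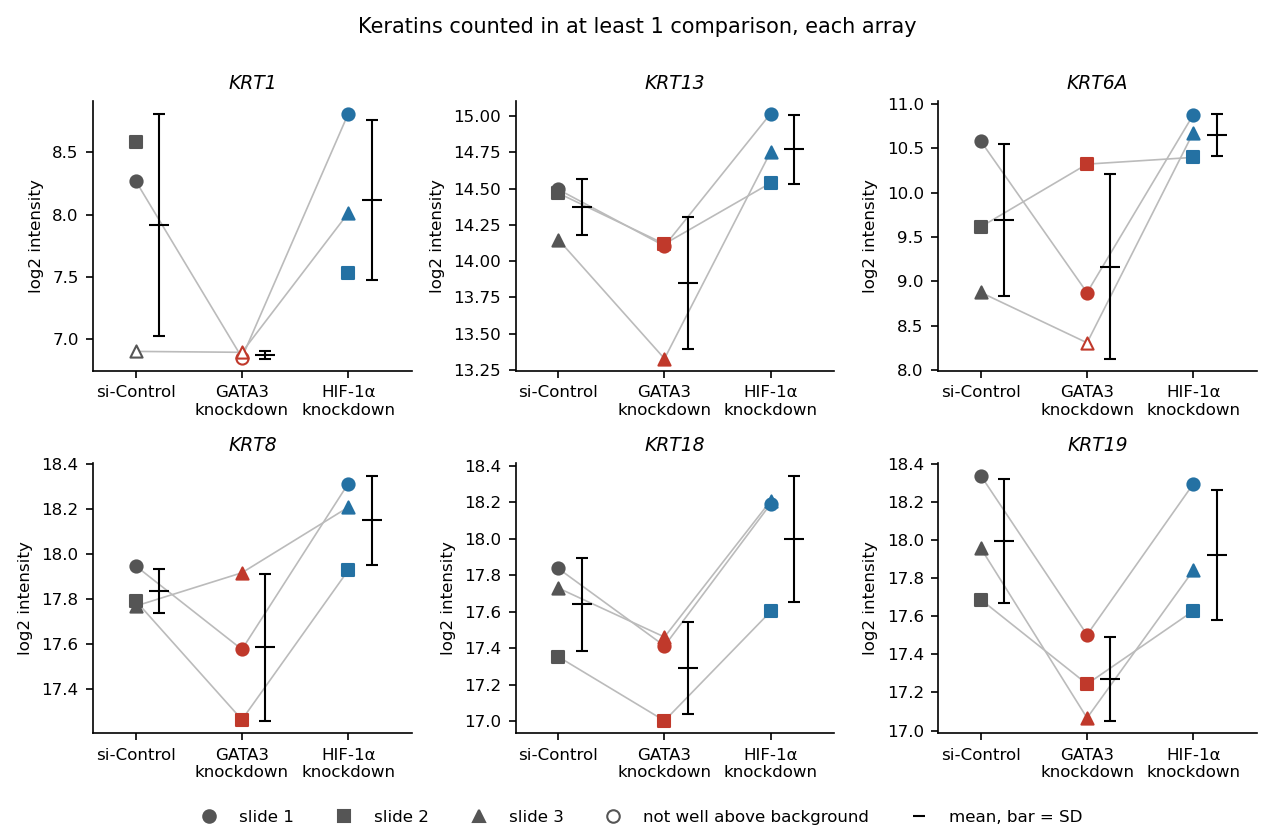
Log2 intensity (y axis) of the 6 keratins counted in at least 1 comparison, in each group (x axis). Symbols mark the slide, grey lines join arrays of 1 slide, open symbols are spots not well above background, and black bars show mean and SD; in KRT19 all 3 GATA3 knockdown arrays lie below the other 6.

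Of all 26 keratins in GATA3 knockdown, 18 had a negative difference, and the median was -0.24 against -0.02 over all features. The 5 stress and wound keratins all had negative differences, from -0.52 for KRT6A to -0.04 for KRT6C, and so did the 3 basal keratins (KRT15 -0.48, KRT5, which was not well above background, -0.28 and KRT14 -0.26) and the 3 mucosal keratins (KRT13 -0.52, KRT4 -0.31, KRT78 -0.04). None of these 11 was counted. In the authors' table and with the processed signal, a stress and a basal keratin turned positive, and with 75th percentile scaling after normexp a stress and a mucosal keratin did. KRT12, a corneal keratin, gave 0.71 ± 0.36, with 1 of its 3 GATA3 knockdown spots well above background and none in si-Control.

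Among the desmosome genes JUP, which encodes plakoglobin, stood closest to the threshold in GATA3 knockdown. Its log2 intensity was 16.03, 16.04 and 16.88 in si-Control, 15.81, 15.07 and 15.92 in GATA3 knockdown and 16.10, 15.85 and 16.51 in HIF-1α knockdown. The GATA3 knockdown arrays were all below the si-Control arrays, and 1 of them was above the lowest HIF-1α knockdown array. The difference from si-Control was -0.72 ± 0.34 (SE, 95% interval -1.47 to 0.03), and -0.22, -0.97 and -0.96 within slides. With the slide as a block it passed the threshold, so that 2 members, KRT19 and JUP, were counted as lower where 4.99% of all features were counted, 2.11% as lower and 2.88% as higher. Genes counted only with the block fall outside the rule for named genes and were picked after their values were seen. The other plaque genes gave -0.59 for PKP2, -0.10 for PKP1 and 0.07 for PKP3, and desmoplakin (DSP) gave -0.56 ± 0.45. A second DSP probe gave -0.23 ± 0.46. In HIF-1α knockdown against si-Control this probe gave 0.14, where the brightest gave -0.17. In GATA3 knockdown the 7 desmosomal cadherins had a median of 0.01, which fell to -0.03 in the authors' table and -0.15 with non-uniform spots kept. Groups did not overlap for 5 of 38 members with all arrays measured, with KRT12 higher and KRT5, KRT13, KRT19 and JUP lower, where 2.59% of all features were higher and 3.43% lower.

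In HIF-1α knockdown, 0 of 40 members were counted by limma, where 5.23% of all features were (1.95% higher, 3.28% lower). With the slide as a block 2 were lower, where 8.41% of all features were counted, 5.29% as lower and 3.12% as higher, namely the desmoglein DSG2 and the plakophilin PKP2. DSG2, the desmoglein of simple as well as stratified epithelia, gave 14.94, 15.63 and 16.49 in si-Control, 15.59, 14.94 and 15.92 in GATA3 knockdown and 14.42, 15.07 and 15.23 in HIF-1α knockdown. The HIF-1α knockdown arrays were lower than si-Control on each slide, by -0.52, -0.56 and -1.26, although the groups overlapped. The difference was -0.78 ± 0.42 (SE), with a 95% interval of -1.72 to 0.16 in the fit without the block.

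PKP2, a plakophilin of simple and stratified epithelia and of heart muscle, gave 13.19, 13.23 and 14.22 in si-Control, 12.93, 12.34 and 13.58 in GATA3 knockdown and 12.51, 13.06 and 13.10 in HIF-1α knockdown. Its HIF-1α knockdown arrays were all below si-Control. The difference was -0.66 ± 0.39 (SE, 95% interval -1.52 to 0.21), with -0.69, -0.17 and -1.12 within slides. PLEC, the plakin plectin of hemidesmosomes, also had all 3 HIF-1α knockdown arrays below si-Control (-0.53 ± 0.31). KRT13 and KRT24 had all 3 above (0.40 ± 0.28 and 0.59 ± 0.40). These 4 were the members with groups that did not overlap, of 38, where 5.19% of all features were higher and 8.08% lower.

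The desmosome and hemidesmosome genes and the keratins had medians of opposite sign in this comparison, a difference that was not tested, and their ranges overlapped. Of 15 desmosome and hemidesmosome genes 12 were negative, with a median of -0.30, which stayed between -0.48 and -0.26 under the other scalings. Of 25 keratins 19 were positive, with a median of 0.13 against -0.01 over all features, but 75th percentile scaling after normexp turned this to 19 negative and a median of -0.16 (all features -0.10). Within slides 1, 2 and 3 the medians were 0.03, 0.08 and 0.25 for the keratins and -0.03, -0.17 and -0.58 for the other genes, closest on slide 1. The direction of the keratins in HIF-1α knockdown thus depended on the scaling. Leaving out si-Control replicate 1 raised the count from 0 to 4, with COL17A1, DSC2 and DSG2 lower and KRT6A higher. The share of all features counted without that array is not given here, so this rise is not a result about the members.

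**Figure D2:**
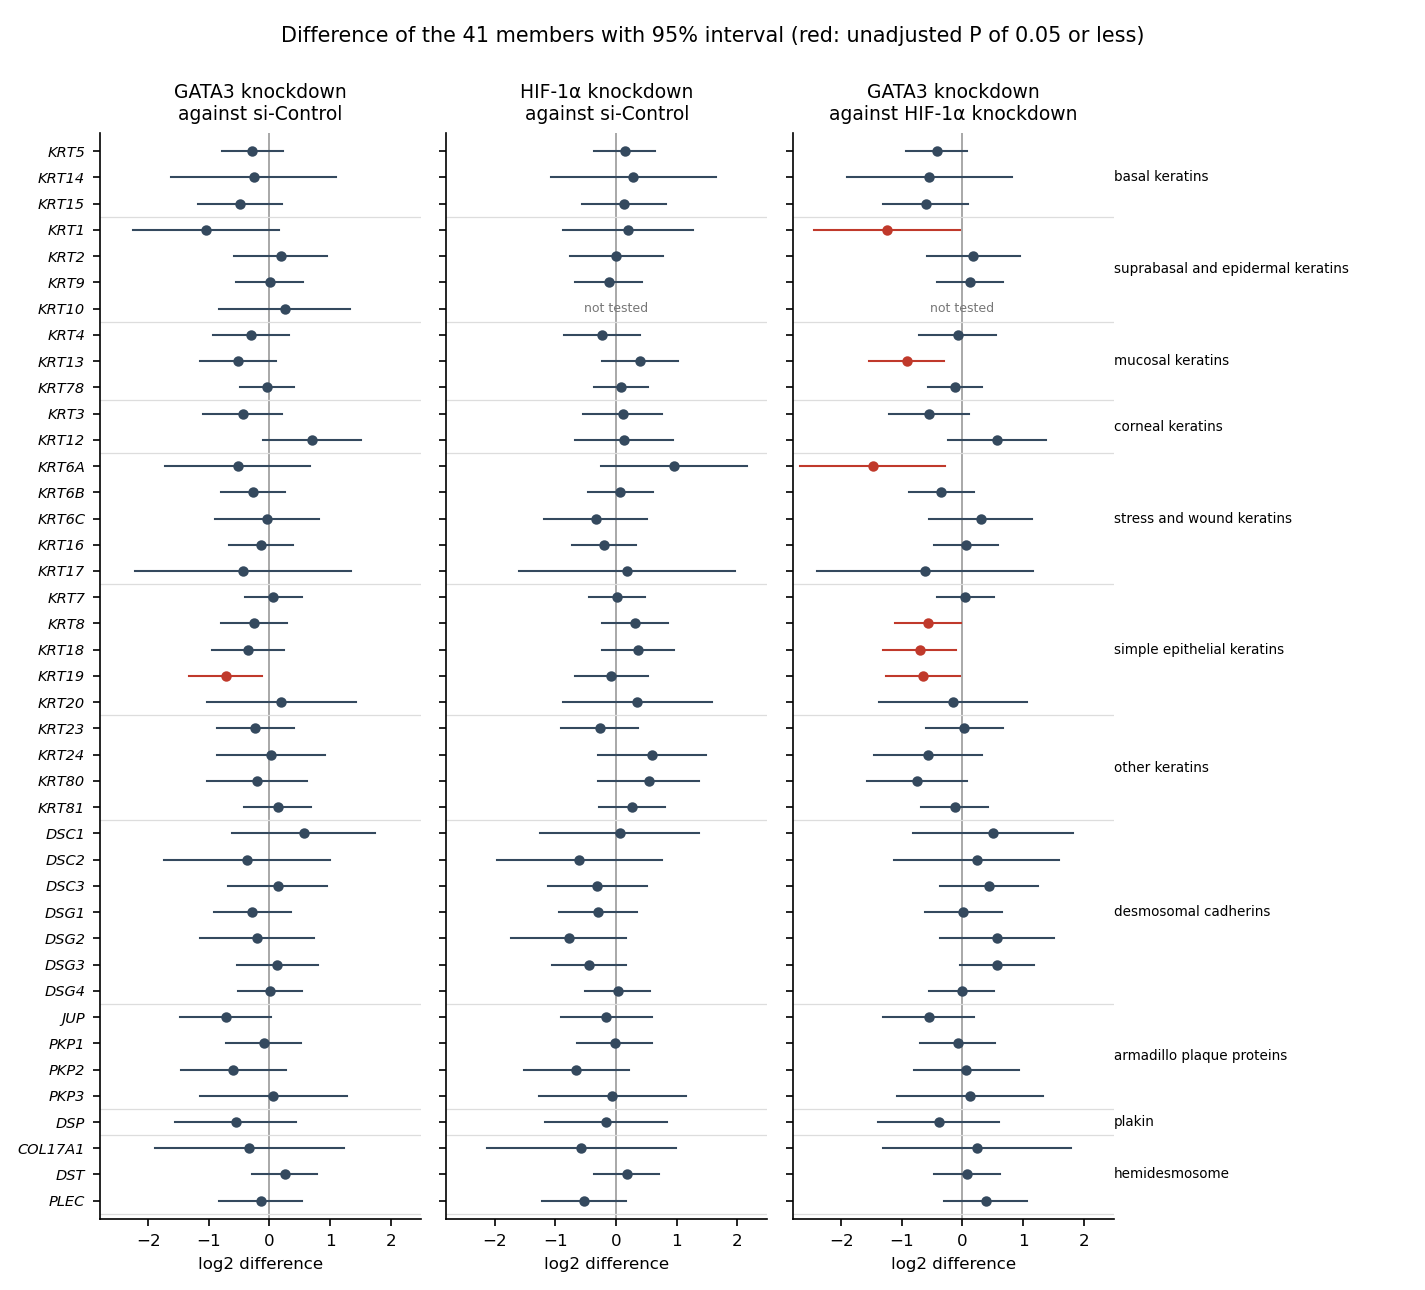
Log2 difference (x axis) of each of the 41 members (y axis, by role) with its 95% interval in the 3 comparisons. Red marks an unadjusted P of 0.05 or less, which holds for KRT19 in GATA3 knockdown, for no member in HIF-1α knockdown and for 6 keratins in the direct comparison.

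The direct comparison gave the most counted members. In GATA3 knockdown 6 of 40 were lower than in HIF-1α knockdown and none was higher, where 12% of all features were counted, 5.05% as lower and 6.93% as higher. All 6 were keratins, of 25 tested, and none of the 15 desmosome and hemidesmosome genes was counted. They were KRT13 of the oral mucosa, KRT6A of wounded epithelium, KRT8, KRT18 and KRT19 of simple epithelia and KRT1 of suprabasal epidermis. In 8 of 37 members the arrays of the groups did not overlap, all lower, where 10.9% of all features were lower and 11.9% higher. These were KRT5, KRT6A, KRT8, KRT13, KRT15, KRT18, KRT19 and KRT24.

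KRT13 gave 14.49, 14.47 and 14.15 in si-Control, 14.10, 14.12 and 13.33 in GATA3 knockdown and 15.02, 14.54 and 14.75 in HIF-1α knockdown. The 3 groups did not overlap, with GATA3 knockdown lowest and HIF-1α knockdown highest. Its difference of -0.92 ± 0.28 (SE, 95% interval -1.54 to -0.30, adjusted P = 0.343) was 1.89-fold, with -0.91, -0.42 and -1.43 within slides. At the unadjusted threshold it passed in all 11 other settings and without each of the 6 arrays in turn, over a range of -1.05 to -0.66. Against si-Control its differences were -0.52 ± 0.28 for GATA3 knockdown and 0.40 ± 0.28 for HIF-1α knockdown, neither of which passed.

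KRT6A gave 10.58, 9.61 and 8.88 in si-Control, 8.87, 10.32 and 8.31 in GATA3 knockdown, the last not well above background, and 10.87, 10.40 and 10.67 in HIF-1α knockdown. GATA3 knockdown was below HIF-1α knockdown on every array, but on slide 2 by only -0.08, against -2.0 and -2.36 on slides 1 and 3. The difference was 2.79-fold (-1.48 ± 0.54, SE, 95% interval -2.68 to -0.28, adjusted P = 0.384). At the unadjusted threshold it passed in all 11 other settings. It did not pass without GATA3 knockdown replicate 1, GATA3 knockdown replicate 3 or HIF-1α knockdown replicate 1, with a lowest size of -1.05. KRT6A, KRT6B and KRT6C are near-identical genes whose probes may share signal. KRT6B was well above background on no array, and KRT6C gave 0.30 ± 0.38.

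KRT8 and KRT18, which pair with each other, are neighbours among protein-coding genes of the keratin cluster on chromosome 12. KRT18 gave 17.84, 17.35 and 17.73 in si-Control, 17.41, 17.00 and 17.46 in GATA3 knockdown and 18.19, 17.60 and 18.21 in HIF-1α knockdown. GATA3 knockdown was below HIF-1α knockdown by -0.78, -0.60 and -0.75 within slides. The difference was 1.63-fold (-0.71 ± 0.27, SE, 95% interval -1.30 to -0.11, adjusted P = 0.387), and a second KRT18 probe gave -0.66 ± 0.36.

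KRT8 gave 17.95, 17.79 and 17.77 in si-Control, 17.58, 17.26 and 17.92 in GATA3 knockdown and 18.31, 17.93 and 18.21 in HIF-1α knockdown. The groups just failed to overlap, with 17.92 as the highest GATA3 knockdown array and 17.93 as the lowest HIF-1α knockdown array. The difference was 1.48-fold (-0.56 ± 0.24, SE, 95% interval -1.11 to -0.02, adjusted P = 0.411), with -0.74, -0.66 and -0.29 within slides. The 3 probes of KRT8 disagreed. A second probe for the same coding transcript gave -0.70 ± 0.23 here and -0.62 ± 0.23 in GATA3 knockdown against si-Control and passed in both, whereas a probe for a non-coding KRT8 transcript gave -0.0035 and 0.13.

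KRT19 was 1.57-fold lower than in HIF-1α knockdown (-0.65 ± 0.27, SE, 95% interval -1.26 to -0.04, adjusted P = 0.406), with -0.79, -0.38 and -0.77 within slides, and -0.07 between HIF-1α knockdown and si-Control. KRT1 gave 8.27, 8.58 and 6.90 in si-Control, 6.85 and 6.89 on slides 1 and 3 of GATA3 knockdown and 8.81, 7.53 and 8.01 in HIF-1α knockdown. Both GATA3 knockdown values were not well above background, and the third spot was left out as non-uniform. The difference was 2.37-fold (-1.24 ± 0.53, SE, 95% interval -2.44 to -0.04, adjusted P = 0.411) and rested on those 2 arrays. With the third spot kept it was -0.73 ± 0.55 and did not pass.

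**Figure D3:**
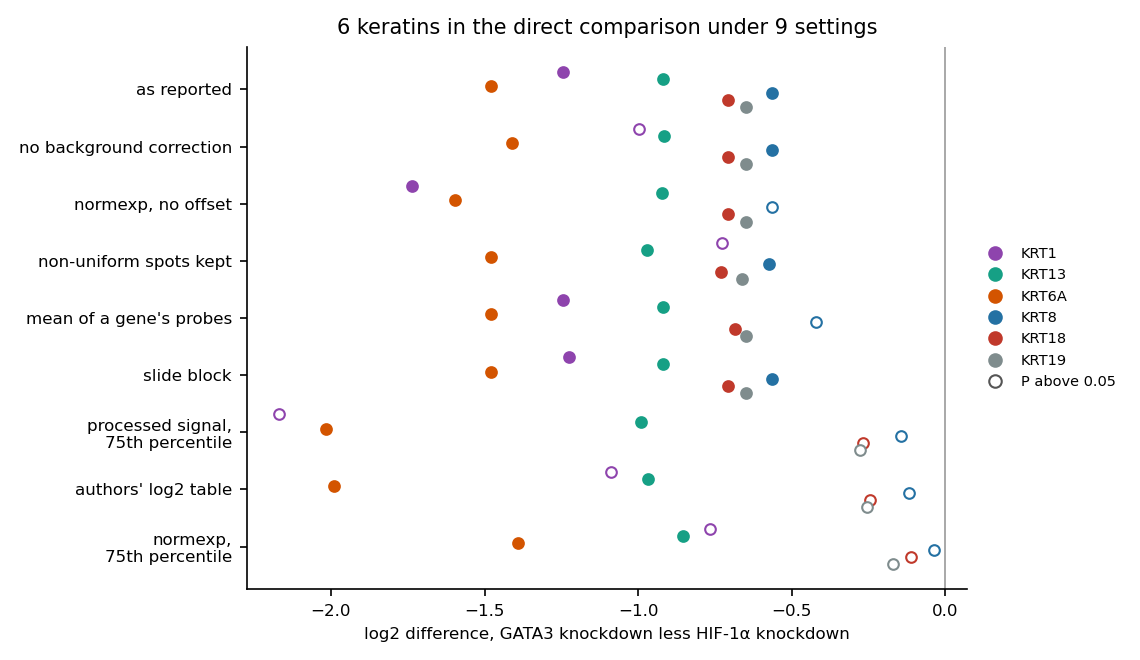
Log2 difference (x axis) between GATA3 knockdown and HIF-1α knockdown of the 6 counted keratins under the reported processing and 8 other settings (y axis). Filled points have an unadjusted P of 0.05 or less. KRT13 and KRT6A stay filled throughout, and KRT8, KRT18 and KRT19 are open in the lower 3 settings.

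The bright keratins depended on how arrays were scaled. With the processed signal less the 75th percentile, KRT8 gave -0.14, KRT18 -0.27 and KRT19 -0.28, and none passed. With 75th percentile scaling after normexp they gave -0.04, -0.11 and -0.17, a setting in which the median of all features moved to 0.15, so that relative to it they were at -0.19, -0.27 and -0.32. In these 2 settings KRT13 and KRT6A were still lower, at -0.99 and -2.02 and at -0.85 and -1.39. The split of counted members, 6 lower and 0 higher as reported, was 3 lower and 1 higher with the processed signal, 2 and 1 in the authors' table and 2 and 1 with 75th percentile scaling after normexp. The member counted as higher was DSG4 in the first 2 of these and DSG3 in the third, neither well above background on the arrays used. The share of all features counted in these settings is not given here, so the splits are not a result about the members.

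Leaving out 1 array moved the count of 6 to 2 without HIF-1α knockdown replicate 1 (KRT13 and KRT80) or replicate 3 (KRT13 and KRT6A). It moved to 3 without GATA3 knockdown replicate 1 (KRT13, KRT18 and KRT19). The share of all features counted in these fits is not given here. KRT18 did not pass without GATA3 knockdown replicate 2 or HIF-1α knockdown replicates 1 or 3 (-0.91 to -0.56 over the 6 arrays left out in turn), nor did KRT19 without these or GATA3 knockdown replicate 3 (-0.80 to -0.46). KRT8 did not pass without GATA3 knockdown replicates 1 or 2 or HIF-1α knockdown replicates 1 or 3 (-0.73 to -0.40), and KRT1 did not without replicates 1 or 3 of either group (-1.54 to -0.90). With the slide as a block 8 members were lower, where 18.7% of all features were counted, 8.24% as lower and 10.5% as higher, the same 6 with KRT80 (-0.75) and JUP (-0.56). KRT80, a type II keratin of many epithelia, differed unevenly between slides, by 0.01, -1.70 and -0.55.

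Over all 25 keratins tested in the direct comparison, the 6 counted ones included, 18 were negative and the median was -0.43 against 0.00 over all features. Under 75th percentile scaling after normexp, 13 of 25 were negative and the median was -0.01 where that of all features was 0.15. The 3 basal keratins were all negative in each scaling tried, KRT15 by -0.61 ± 0.31, KRT14 by -0.55 ± 0.61 and KRT5, not well above background on any array, by -0.43 ± 0.23. KRT7, another simple keratin, gave 0.05 with a 95% interval of -0.42 to 0.51, and KRT78 gave -0.12 with -0.57 to 0.33. A second KRT23 probe gave -0.89 ± 0.30 and passed, where the brightest gave 0.03.

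The desmosome and hemidesmosome genes had a median of 0.13 in the direct comparison, with 11 of 15 positive, and their difference from the keratins was not tested. Of 7 desmosomal cadherins 6 were positive, with a median of 0.44 that stayed between 0.24 and 0.53 in the other scalings, and the 3 hemidesmosome genes were positive in each scaling. None was counted. DSG2 gave 0.58 ± 0.42, and no DSG3 spot used here was well above background. Of the 4 armadillo proteins 2 were positive (PKP2 and PKP3) and 2 negative (JUP and PKP1), and DSP gave -0.39 ± 0.45. On slide 2 the median of the cadherins was -0.25, against 0.65 on slide 1 and 0.49 on slide 3. For all 15 genes the slide 2 median of -0.29 was near that of the keratins (-0.31), against 0.47 on slide 1 and 0.40 on slide 3. A second probe of DST, the hemidesmosome plakin dystonin, which has epithelial and other isoforms, gave 1.16 ± 0.36 here and -1.03 ± 0.36 in HIF-1α knockdown against si-Control and passed in both. The brightest DST probe gave 0.07 and 0.18. The other 2 of its 4 probes gave 0.50 and 0.15 here and -0.82 and -0.56 in HIF-1α knockdown against si-Control, and did not pass. In GATA3 knockdown against si-Control these 2 gave -0.33 and -0.40, where the brightest gave 0.25. The sign of DST against si-Control thus depended on the probe.

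Members also moved together between slides within each group. In 10 of 37 members measured on all arrays (27.0%), slide 3 held the highest array in all 3 groups, where 8.15% of all features did so. These were KRT14, KRT16, KRT17, JUP, PKP2, PKP3, DSP, DSG2, DSC2 and COL17A1. KRT17, the stress keratin, gave 14.80, 15.43 and 17.56 in si-Control, 15.45, 14.43 and 16.60 in GATA3 knockdown and 15.43, 15.52 and 17.39 in HIF-1α knockdown. Its range within each group exceeded every difference between group means, and its 95% interval in GATA3 knockdown ran from -2.22 to 1.35. COL17A1, the hemidesmosome collagen, gave 6.89 (not well above background), 8.49 and 9.94 in si-Control, with -2.13 to 0.98 as its interval in HIF-1α knockdown. Slide 2 held the highest array in 4 members (KRT6C, KRT7, KRT23 and KRT81), where 3.29% of all features did so, and slide 1 in 2 (KRT2 and KRT19), where 7.05% did. The lowest array was on slide 1 in 2 members (DSG1 and COL17A1, 9.73% of all features), on slide 2 in 1 (KRT18, 5.11%) and on slide 3 in 1 (KRT24, 6.02%). What differed between slides was not tested.

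**Figure D4:**
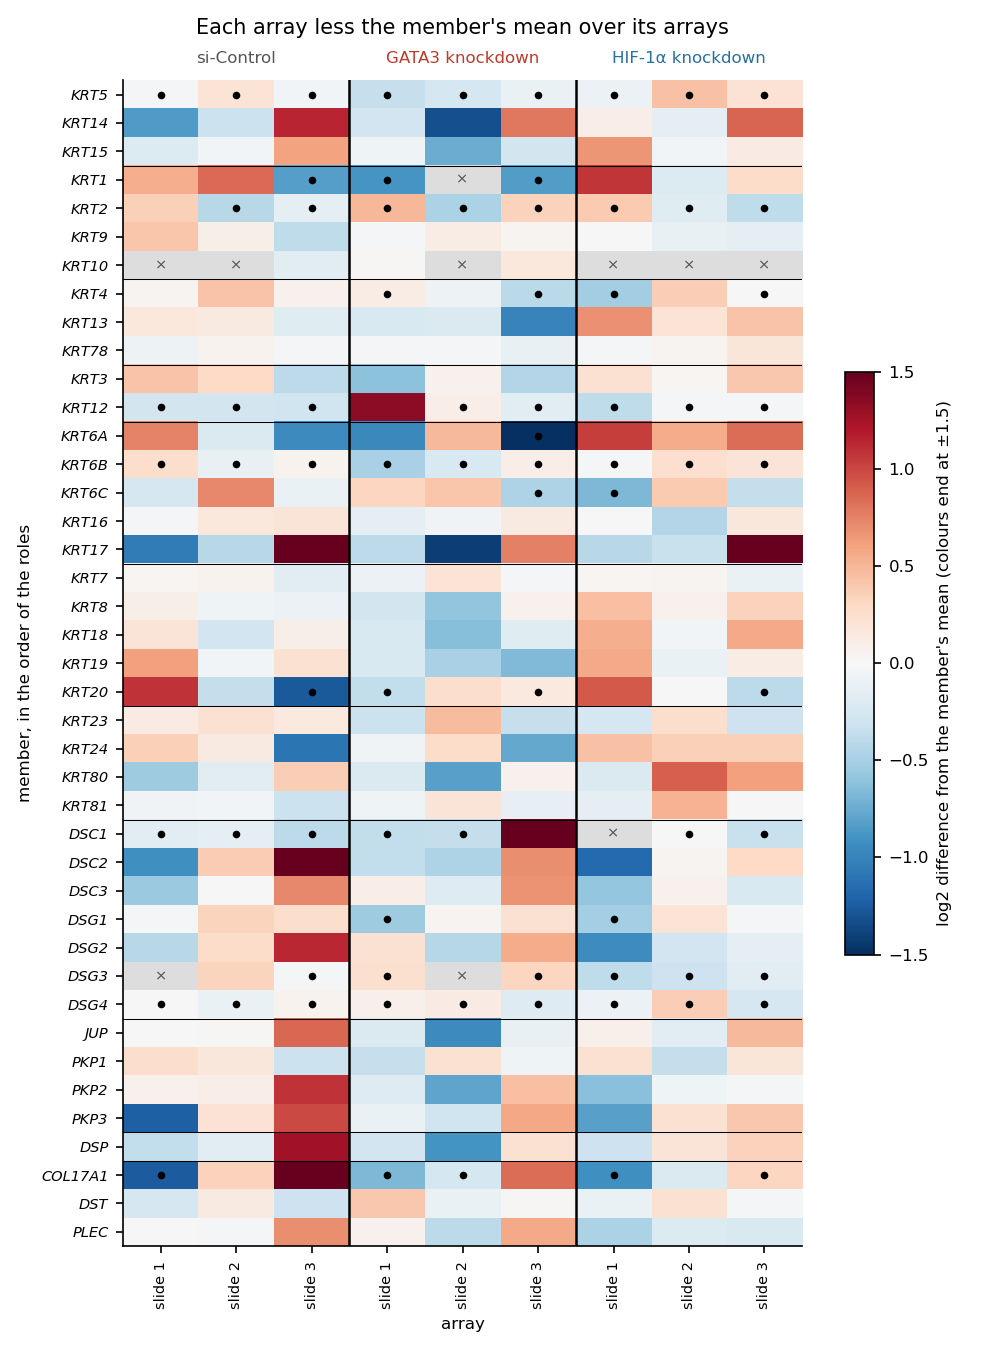
Colour shows log2 intensity of each array (x axis, by group and slide) less the member's mean over its arrays, for the 41 members (y axis, by role). Dots mark spots not well above background and crosses missing spots; red on slide 3 of each group is seen for KRT14, KRT17 and PKP3, and blue in GATA3 knockdown for KRT18 and KRT19.

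The genome gave the members 2 keratin clusters, with 14 of the 26 keratins on chromosome 12 and 12 on chromosome 17 (RefSeq, GRCh38.p14). On chromosome 17 KRT13, KRT15 and KRT19 follow each other without another protein-coding gene, and gave -0.92, -0.61 and -0.65 in the direct comparison. KRT9, the next gene past KRT19, gave 0.12. KRT36, which is no member and lies on the other side of KRT13, was higher in GATA3 knockdown (mean log2 intensity 9.95) than in HIF-1α knockdown (9.59). On chromosome 12 KRT78, on the other side of KRT8 from KRT18, gave -0.12. JUP lies on chromosome 17 and PKP2 on chromosome 12, and the 7 desmosomal cadherins all lie on chromosome 18.

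Of the 41 members, 21 had an entry in the RefSeq promoter table. KRT1, KRT6A, KRT13, KRT18 and KRT19 were not among them, so KRT8 was the only counted keratin that was searched. The 250 bases before the start site were searched on both strands for 4 GATA motifs and 2 core sequences of hypoxia response elements. The GATA motifs were AGATAA, the same ending in G (AGATAG), and both again with T as the first letter, spelled TGATAA and TGATAG. The hypoxia core was ACGTG or, with G first, GCGTG. For each member only the first listed start site was used, and any other was not searched. Whether it is the start of the transcript that the member's probe measures was not checked, for KRT8 as for the others. Letters of the hypoxia core that read alike on both strands overlap and were counted on each strand. The GATA letters were in 7 of 21 members and in 22.3% of 35116 promoters of the same length, and the hypoxia core letters were in 5 of 21 and in 43.2%. Below are the windows of KRT8, counted in the direct comparison, and JUP, counted with the slide block, both on the minus strand of GRCh38.p14 and written from 5′ to 3′, with matches in capitals. KRT8 holds no match at chr12:52926470-52926719, and JUP holds a GATA motif with its first base at -113 from the start site and a hypoxia core at -44, at chr17:41786712-41786961.
KRT8: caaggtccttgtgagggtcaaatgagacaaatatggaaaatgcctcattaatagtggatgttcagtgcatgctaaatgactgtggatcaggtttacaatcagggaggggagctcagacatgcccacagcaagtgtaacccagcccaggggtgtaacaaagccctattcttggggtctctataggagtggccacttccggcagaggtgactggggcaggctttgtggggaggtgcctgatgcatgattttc
JUP: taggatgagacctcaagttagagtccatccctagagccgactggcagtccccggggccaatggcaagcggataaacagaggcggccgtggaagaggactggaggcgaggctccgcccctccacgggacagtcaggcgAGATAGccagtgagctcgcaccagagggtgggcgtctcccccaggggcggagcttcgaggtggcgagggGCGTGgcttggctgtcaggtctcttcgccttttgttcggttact

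Related genes from lists were summarised beside the members, and those called higher or lower passed the same unadjusted threshold. None passed an adjusted P of 0.05 without the block. Among 26 other keratins on the array, mostly of hair and hair follicle, none was counted in GATA3 knockdown. KRT39 was higher in HIF-1α knockdown (1.54 ± 0.57, 2 arrays a group). KRT85 was lower in the direct comparison (-1.33 ± 0.49), with 1 of its 3 GATA3 knockdown spots well above background. The median of these other keratins was -0.23, 0.27 and -0.52 in the 3 comparisons. Of 6 other intermediate filament genes, NES, encoding nestin, was lower in the direct comparison (-1.02 ± 0.45), and VIM, encoding the mesenchymal filament vimentin, gave 0.43 and -0.20 in GATA3 knockdown and HIF-1α knockdown and was not counted.

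Among 6 partners of the hemidesmosome, CD151, a tetraspanin that binds laminin receptors, was lower in GATA3 knockdown (-0.67 ± 0.21) and in the direct comparison (-0.93 ± 0.21). ITGB4, the integrin β4 chain that plectin and dystonin bind, was higher in HIF-1α knockdown (0.89 ± 0.36) and lower in the direct comparison (-1.68 ± 0.36, adjusted P = 0.199). Its GATA3 knockdown arrays lay below all HIF-1α knockdown arrays, with -1.48, -2.02 and -1.55 within slides. Of 9 junction and plakin partners EVPL, encoding envoplakin, was lower in GATA3 knockdown (-0.65 ± 0.21), and MACF1, a plakin that links actin with microtubules, was lower in HIF-1α knockdown (-1.17 ± 0.44). In the direct comparison EVPL (-0.61) and PPL, encoding periplakin (-0.89), were lower, and MACF1 (1.34), CTNNB1, encoding β-catenin (0.95), and PNN, encoding pinin (1.02), were higher.

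Among 11 regulators of keratin genes, TFAP2C (-0.87 ± 0.27), GRHL2 (-0.95 ± 0.25) and OVOL1 (-1.11 ± 0.38, without 1 missing spot) were lower in GATA3 knockdown. These encode transcription factors of epithelial differentiation. GRHL2 differed by -0.91, -1.01 and -0.93 within slides and was lower than in HIF-1α knockdown too (-0.99 ± 0.25), as was TFAP2C (-0.66 ± 0.27). ZNF750, a factor of terminal differentiation, was higher in HIF-1α knockdown (0.98 ± 0.39). TP63, which encodes the master factor of stratified epithelia, gave -0.23 and 0.04 and was not counted.

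Markers of epithelial and other cells were measured beside the keratins. Of 11 squamous epithelial markers, all had negative differences in GATA3 knockdown, with a median of -0.60, and GRHL2 was among those counted. In HIF-1α knockdown ITGB4 was counted as higher, and in the direct comparison ITGB4 and GRHL2 were among those counted as lower. This list shares genes with the regulators and partners above. The log2 of its summed intensity ranged from 17.51 to 18.77 in si-Control, 17.03 to 17.90 in GATA3 knockdown and 17.46 to 18.11 in HIF-1α knockdown. In bulk RNA, fewer cells of a type and less RNA per cell cannot be told apart. For fibroblast markers the sum ranged from 15.67 to 17.04, 16.17 to 16.63 and 16.31 to 16.67 in the 3 groups. A missing spot added 0 to a sum, and COL1A1 had values on 2, 2 and 1 arrays of these groups. PDGFRB was the brightest of this list, with group means of 16.20, 16.23 and 16.32. DCN was lower in GATA3 knockdown (-1.08 ± 0.37) and in the direct comparison (-1.41 ± 0.37), with 1 of its 3 GATA3 knockdown spots well above background. For leukocyte markers the sum ranged from 15.34 to 16.68, 15.86 to 16.57 and 16.66 to 16.73, where the brightest, PTPRC, had group means of 16.13, 16.23 and 16.62. No melanocyte or endothelial marker was counted in any comparison. All arrays were of 1 cultured line, and a part of other cells in the keratin differences was not tested.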

How the data were processed

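Total RNA of the 9 samples was hybridised to 1-colour Agilent arrays (1 sample per array, probes annotated on hg19). Per the file headers, spot intensity was read with Agilent Feature Extraction 10.5.1.1. The authors also deposited a log2 table, in which 99.8% to 99.9% of values per array lay within 0.001 of log2 processed signal less 1 constant per array, with a 75th percentile near 0, so that quantile normalization is not seen in it. It was used as an alternative. Here the median spot signal was corrected with normexp (offset 50) on the local background, non-uniform spots were set to missing, arrays were quantile normalized and control spots left out. Repeated spots were averaged per probe, and a gene was read from its brightest probe over all arrays. Log2 values of the 3 groups were fitted in 1 model with limma 3.58.1 in R 4.3.3, with two-sided unadjusted P of 0.05 or less, as the methods used, and Benjamini-Hochberg adjusted P over the whole table. Every P value in the text is from limma fitted across all genes. Errors are SE for differences and SD for levels, and the number of arrays (3 per group) limits the precision. Accessions matched RefSeq (GRCh38.p14) for 31104 probes and not for 27097, which kept the name in the files. The slide, which equals the replicate number, was tried as a block.

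Members past the unadjusted threshold in any comparison, or with groups that did not overlap and a log2 difference of at least 1, were given with the value on every array. From each list at most 5 genes past the threshold in a comparison were named, by the smallest P. The members and lists were chosen with earlier results of these data known. The alternatives were the processed signal, the authors' table, 75th percentile scaling after normexp, normexp without its offset, uncorrected background, non-uniform spots kept, a filter on dim probes, the mean of a gene's probes, separate fits, a trended and robust variance, the adjusted P, the block and each array left out. The scripts were tested on simulated data. Some genes of the marker lists are not reported here.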

Additional observations from a re-analysis of the deposited data

How the results depend on the processing

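The reported counts of members were 1, 0 and 6 for GATA3 knockdown against si-Control, HIF-1α knockdown against si-Control and GATA3 against HIF-1α knockdown. In the first the count was 2 with 75th percentile scaling after normexp, with non-uniform spots kept and with a trended and robust variance, and 0 at an adjusted P. It was 1 in the authors' log2 table and with the processed signal, but there KRT19 did not pass and DSG4 was counted as higher. In the second it was 1 with 75th percentile scaling after normexp and with non-uniform spots kept. In the third it was 3 in the authors' log2 table and with 75th percentile scaling after normexp, and 0 at an adjusted P. It was 5, all lower, with uncorrected background, the mean of a gene's probes and separate fits. With the processed signal 3 were lower and 1 higher. Normexp without its offset gave 6 lower and 1 higher, and a trended and robust variance gave 7 lower and 1 higher, with DSG3 as the higher one in both. Leaving out 1 array at a time gave 1 to 3, 0 to 4 and 2 to 6. Apart from the adjusted P, the share of all features counted is not given for these alternatives. A change of count among them is therefore not a result about the members. The cause of these changes was not tested, and no difference of a counted keratin turned its direction under any of these alternatives. With the replicate number (the slide) as a block the counts were 2, 2 and 8, and over all features they went from 1418, 2478 and 5675 to 2381, 3983 and 8876. Same-numbered arrays deviated together with r above 0.1 in 7 of 9 pairs (range -0.19 to 0.72). For arrays of unlike number r ranged from -0.69 to 0.47. In GATA3 knockdown against si-Control, where the block added JUP, all 3 same-numbered pairs were above 0.1 (0.22, 0.59 and 0.72). In the other comparisons not all were. Each slide held 1 array of every group in all 3 comparisons. Values near background, as for KRT1, KRT5, KRT6B, KRT12, DSG3 and DSG4, have the least support.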
